A study of Mus musculus with 2 samples.

Results

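Splicing factors and RNA helicases were followed as a group of genes in the testis of day 10 mice that lacked or carried a functional copy of Mili. The members were genes whose symbol placed them among the SR proteins (Srsf), the subunits of the U2 particle (Sf3a, Sf3b) and its loading factor U2AF, the hnRNP proteins, the snRNP proteins (Snrp), the pre-mRNA processing factors (Prpf) and the DEAD-box and DEAH-box helicases (Ddx, Dhx). Snrpn, Ddx4 and Ddx25 were left out by the rule. The rule found 80 genes, read by 113 probe sets, of 8251 genes on the array with a probe set annotated to exactly 1 symbol. It used names alone and no measured value. Of the 80, 79 are protein-coding and 1, Snrp1c-ps2, is a pseudogene.

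The groups were testes of heterozygous (Mili+/-) and of homozygous mutant (Mili-/-) mice, both at day 10 after birth, with polyadenylated RNA of each hybridised to 1 array. Strain, structure of the mutant allele and number of mice behind each array are unstated in the labels. Both groups carry the mutant allele, on 1 chromosome in Mili+/- and on both in Mili-/-. MILI, encoded by Piwil2, is a Piwi protein of the male germ line that binds piRNAs. Per the labels, germ cells of the mutant stop in early meiotic prophase, and dying cells first appear at day 11, so day 10 was chosen to precede cell loss. The annotation assigns no probe set to Piwil2, and the labels therefore could not be set against its transcript. With 1 array per genotype there is no replicate, no p-value and no spread between animals. Every difference below describes these arrays.

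Introns are removed from pre-mRNA by the spliceosome, which is built from small nuclear RNAs bound to proteins (snRNPs). U1 recognises the start of an intron and U2 its branch site, and a ring of Sm proteins surrounds the small nuclear RNAs. SR proteins bind exons and usually favour their inclusion, while many hnRNP proteins bind introns or exons and oppose it. DEAD-box and DEAH-box helicases use ATP to rearrange RNA and RNA-protein complexes in splicing, export, ribosome assembly, translation and decay. Testis is known for an unusually high number of splice forms, and splicing regulators change as germ cells enter meiosis.

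Promoter sequences were available for 73 of the 80 genes, in 94 windows of 250 bases before a transcription start (RefSeq, GRCm38.p6). The 100 bases before the start are printed for 4 of them. They are Srsf5 and Srsf6, the lowest SR genes in Mili-/-, Sf3a1, the lowest gene of the U2 particle, and Snrpb2, the only member at least 1.5-fold higher there among those compared below. These 4 were chosen after their values were seen. Capitals mark GGGCGG (the GC box), CGGAAG (the core read by ETS factors), TGACGT (the cAMP response half-site) and TATAA, each on either strand. CCAAT and CACGTG were also searched and are absent from these stretches. Marks can join where motifs adjoin or overlap, as GGGCGG and CGGAAG do in Srsf5.
Srsf5 (chr12:80945399-80945498, plus strand): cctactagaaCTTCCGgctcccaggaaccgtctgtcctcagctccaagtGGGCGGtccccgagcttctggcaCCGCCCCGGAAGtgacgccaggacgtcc
Srsf6 (chr2:162931408-162931507, plus strand): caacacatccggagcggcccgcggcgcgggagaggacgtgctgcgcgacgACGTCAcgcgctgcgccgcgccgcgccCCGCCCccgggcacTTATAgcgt
Sf3a1 (chr11:4160254-4160353, plus strand): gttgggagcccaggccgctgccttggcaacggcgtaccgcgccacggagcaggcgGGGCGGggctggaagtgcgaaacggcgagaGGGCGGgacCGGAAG
Snrpb2 (chr2:143062969-143063068, plus strand): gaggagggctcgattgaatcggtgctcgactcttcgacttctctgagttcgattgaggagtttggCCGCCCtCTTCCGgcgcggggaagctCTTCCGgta

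Of the 6 motifs searched, the ETS core CGGAAG showed the largest gap in percentage points between member windows and those of the array. The array's windows include those of the members. It occurred in 47 of the 94 member windows, against 20.8% of the 8408 windows of all named genes on the array and 13.6% of all 32851 windows in the table. Counted by gene, 42 of 73 members (57.5%) had it in at least 1 window, against 24.6% of 6572 genes of the array. By family it was found in 8 of 9 genes of the U2 particle and U2AF, 5 of 6 snRNP genes, 5 of 8 Prpf genes, 12 of 20 DEAD-box and 4 of 7 DEAH-box genes. It was less frequent in SR genes, at 4 of 9, and in hnRNP genes, at 4 of 14.

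The other motifs differed less. TGACGT was found in 21.3% of member windows and 9.11% of the array's windows, GGGCGG in 60.6% and 52.8%, and CCAAT in 43.6% and 34.6%. TATAA (13.8% and 15.9%) and CACGTG (4.26% and 8.22%) were no more frequent in members. The base composition was close, with 59.9% G and C in member windows and 58.8% in those of the array, though the median number of CG dinucleotides was 19 against 14. Whether CGGAAG goes with the expression difference described next was not tested. The motif was in 48.4% of the 62 windows of members that lay below the median difference of all genes and in 56.0% of the 25 windows of members above it. Counted by gene it was in 28 of 49 and 12 of 20. The motifs are matches of letters and not measured binding sites.

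Signals are linear intensities as deposited, and differences are log2 values of Mili-/- minus Mili+/- after each array was centred on its median. For a gene with several probe sets the brightest was used. A gene was compared if at least 1 array reached its own median signal (38.5 for Mili+/- and 41.55 for Mili-/-). This held for 5095 genes of the array and for 76 of the 80 members, 74 of them on both arrays. The members not compared were Ddx10 (18.7 in Mili+/- and 31.5 in Mili-/-), which acts in ribosome assembly, Ddx49 (27.1 and 29.5), Dhx32 (4.6 and 5.4) and Prpf39 (13.2 and 11.8). Signals of different probe sets are not levels on one scale, so no gene's signal is read as higher expression than another's.

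Splicing factors and helicases were slightly lower in Mili-/- than most genes of the array. Their median difference was -0.27, against -0.13 for all 5095 genes compared, and 52 of the 76 lay below that median. The middle 50% of members lay between -0.39 and -0.08, and that of all genes between -0.30 and 0.05. The value of -0.13 for all genes itself depended on scaling. It moved to -0.02 in the values as deposited and to -0.01 after quantile normalization or loess, a shift of 0.11 or more. The gap of the members to all genes was -0.14, -0.14, -0.14 and -0.13 with centring, as deposited, after quantile normalization and after loess. Differences are therefore read against the median of all genes, and the sign of a small difference depends on the scaling.

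At a threshold of 1.5-fold, 6 members were lower and 1 was higher in Mili-/-, among the 76 compared. Across all genes compared 5.04 percent were that much lower, 2.47 percent that much higher and 7.52 percent either. This balance turned with the scaling: without centring, 2.43 percent of all genes were lower and 3.87 percent higher. Quantile normalization gave 2.85 percent lower and 3.57 percent higher, and loess gave 2.71 and 3.61 percent. Under these scalings the members lower by 1.5-fold numbered 2, 3 and 3. Hnrnph2 and Snrpd3 kept the call in each, and Ddx46 kept it after quantile normalization and loess but not as deposited. Srsf6, Hnrnpu and Dhx40 no longer reached 1.5-fold in any of them. Snrpb2 remained the member higher. With centring, the members' shares of 7.89 percent lower and 1.32 percent higher are near the background, so the count past 1.5-fold does not set the members apart. None was 2-fold lower and Snrpb2 alone reached 2-fold higher, where 0.53 percent of all genes were 2-fold lower, 0.314 percent higher and 0.844 percent either. At a lower threshold of 0.32 on the log2 scale 27 members (35.5%) were lower and 2 (2.63%) were higher, against 22.3 percent and 7.28 percent of all genes. These counts were made with centring only, where 68.95 percent of all genes lay below 0, and not under the other scalings. The gap of members to other genes thus lay in small differences shared by many members, and 57 of the 76 were within 0.31 of the median of all genes, as were 74.4% of all genes. The value 0.31 is the SD of the difference between probe sets of one gene, over 720 genes. It was the only spread these data allowed, and it holds no variation between animals or between arrays of a genotype.

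**Figure D1:**
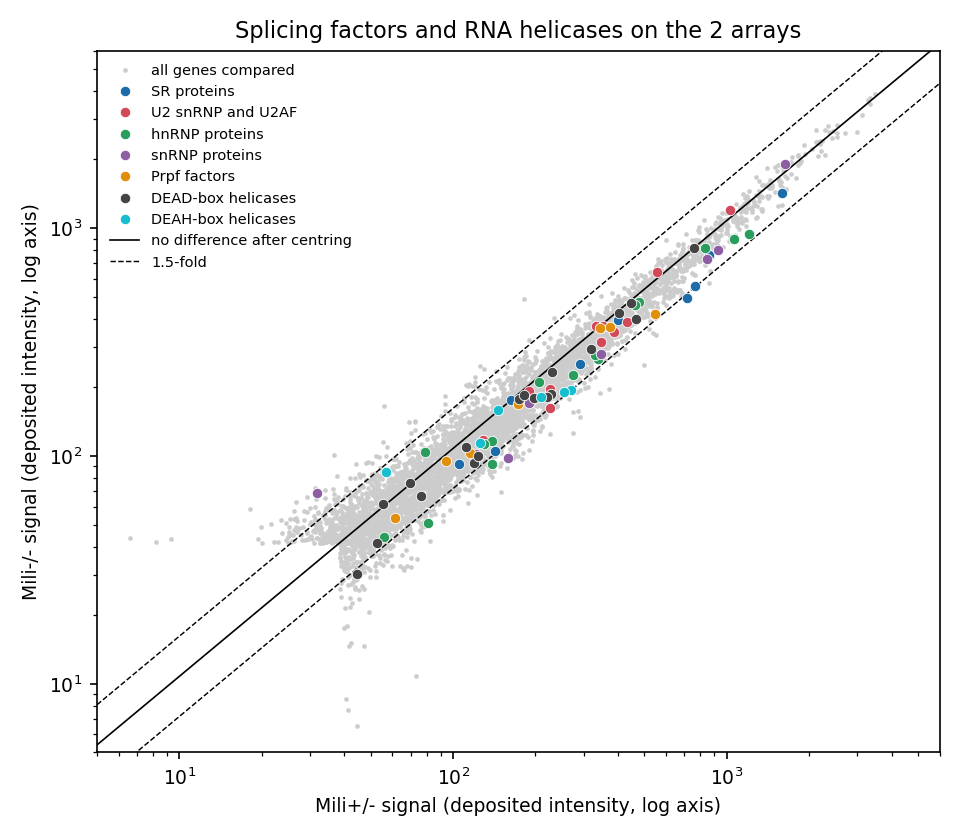
Deposited signal of each gene in Mili+/- (horizontal, log axis) and Mili-/- (vertical, log axis); coloured points are the 76 members compared, by family, and grey points all 5095 genes compared. The solid line marks no difference after centring and dashed lines 1.5-fold. Under the solid line lie 85.5 percent of the members and 68.95 percent of all genes compared. Snrpb2 at 31.7 and 68.6 stands above the upper dashed line.

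Brighter and dimmer genes differed in their medians. Genes compared were divided by mean signal into 4 bands of equal size, and the median of all genes was -0.07, -0.15, -0.16 and -0.11 from the dimmest band to the brightest. The members in the same bands numbered 10, 15, 19 and 32, with medians of -0.31, -0.32, -0.25 and -0.25. In each band the median of the members was lower than that of all genes of that brightness. In the brightest band 23 of 32 members lay under the median of their band, and in the next brightest 11 of 19.

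SR proteins, which bind exons through RNA recognition motifs and carry tails rich in arginine and serine, had a median of -0.30, and 7 of the 9 genes lay under the median of all genes (7 to 8 of 9 under the 4 scalings). Srsf6, a regulator of alternative exons, gave 717.5 in heterozygous and 495 in mutant testis, 1.57-fold lower (-0.65). Srsf5 had 767 and 559 (1.48-fold lower, -0.57). These are bright probe sets with no suffix for shared sequence, and each gene has a single probe set. Srsf10, known as a splicing repressor when dephosphorylated, had 142 and 105 (-0.54), but its second bright probe set went the other way with 42.5 and 56.6 (0.30). Its direction is therefore not settled by the array.

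Among the other SR genes, the classical factors Srsf1, Srsf2 and Srsf3 had close differences in their brightest probe sets, but not in their other ones. Srsf1, the founding SR protein, had 105 and 92.0 (-0.30) and 78.8 and 62.3 in its second bright probe set (-0.45). Dim ones of Srsf1 went the other way, with 15.5 and 20.4 (0.29) and 5.7 and 9.0 (0.40). Srsf2, formerly SC35, had 1591 and 1430 (-0.26) and, in a second probe set, 606 and 460 (-0.51). Both Srsf2 probe sets carry a suffix for shared sequence. Srsf3, the smallest of the family, had 290 and 254 (-0.30), also in a probe set with such a suffix. A dim Srsf3 probe set without a suffix had 32.5 and 32.9 (-0.09). Srsf9 had 862 and 763 (-0.29). Srsf11 (400 and 396.5, -0.12) and Srsf4 (163 and 176, -0.00, with a second probe set at -0.05) were the least different, and both stood at or above the median of all genes.

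The U2 particle and U2AF define the end of the intron: U2AF binds the pyrimidine tract and the splice acceptor, and SF3A and SF3B hold the U2 particle at the branch site. Of 11 genes, 6 lay under the median of all genes and 5 above, with a group median of -0.24. None reached 1.5-fold. Sf3a1 came nearest with 226 and 162 (-0.58). Of the other SF3A subunits, Sf3a3 had 387 and 349 (-0.26) and Sf3a2 had 554 and 640 (0.10), the latter in 2 probe sets of shared or relaxed selection that differed by only 0.03.

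Within SF3B, which contacts the branch site adenosine, Sf3b1 had 353 and 370 (-0.04) in its brightest probe set and 205 and 171 (-0.38) in its second. Sf3b2 (128 and 117, -0.24), Sf3b3 (227 and 196, -0.32) and Sf3b6 (432 and 385, -0.28), which encodes the small subunit at the branch site, lay under the median of all genes, while Sf3b5 had 334 and 373 (0.05). The large U2AF subunit gene U2af2, which reads the pyrimidine tract, had 1029 and 1197 (0.11), the highest difference of this group. Its partner U2af1, which reads the acceptor dinucleotide, had 347.5 and 315 (-0.25), and the related U2af1l4 had 189 and 193 (-0.08).

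The hnRNP proteins, abundant nuclear RNA-binding proteins that coat nascent transcripts, had a median of -0.36 over 16 genes. Of these, 13 lay under the median of all genes (12 to 13 under the 4 scalings). Hnrnph2, an X-linked relative of the G-run binding protein hnRNP H, had 80.8 and 50.9 (1.71-fold lower, -0.78). Its close relative Hnrnph1 had 832.5 and 818 (-0.13) and Hnrnph3 had 205 and 210 (-0.07). Hnrnpu, whose protein binds both RNA and nuclear scaffold DNA, had 138.5 and 92.4 (1.62-fold lower, -0.69). A second Hnrnpu probe set was under the median signal with 13.2 and 13.3 (-0.10).

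Several others had differences near one another. Hnrnpdl, a relative of hnRNP D, had 1201 and 937 (-0.47), and its other bright probe set 118 and 110 (-0.21). Hnrnpa2b1, whose protein also sorts RNA into granules and vesicles, had 1063 and 896 (-0.36) and 108 and 95.2 (-0.30) in its 2 probe sets. Hnrnpa1, a classical opponent of SR proteins, had 56.0 and 44.2 (-0.45). Hnrnpk, which binds cytosine-rich RNA, had 338 and 267 (-0.45). The probe sets of Hnrnpdl and Hnrnpa2b1 thus lay on the same side of 0, and these genes stood together under the median of all genes.

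Hnrnpr (275 and 225.5, -0.39), Hnrnpl (139 and 116, -0.37), which binds CA repeats, and its paralogue Hnrnpll (331 and 278, -0.36) had nearly equal differences. Hnrnpul2 had 130 and 112.5 (-0.32) and -0.20 in its other probe set, and Hnrnpab had 196 and 178 (-0.25). Hnrnpm (478 and 473, -0.13) and Hnrnpd (462 and 461, -0.11), whose protein AUF1 binds AU-rich elements, stood at the median of all genes. Hnrnpc was the exception. Its protein binds uridine tracts, and it had 78.9 in Mili+/- and 105 in Mili-/- (0.30).

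**Figure D2:**
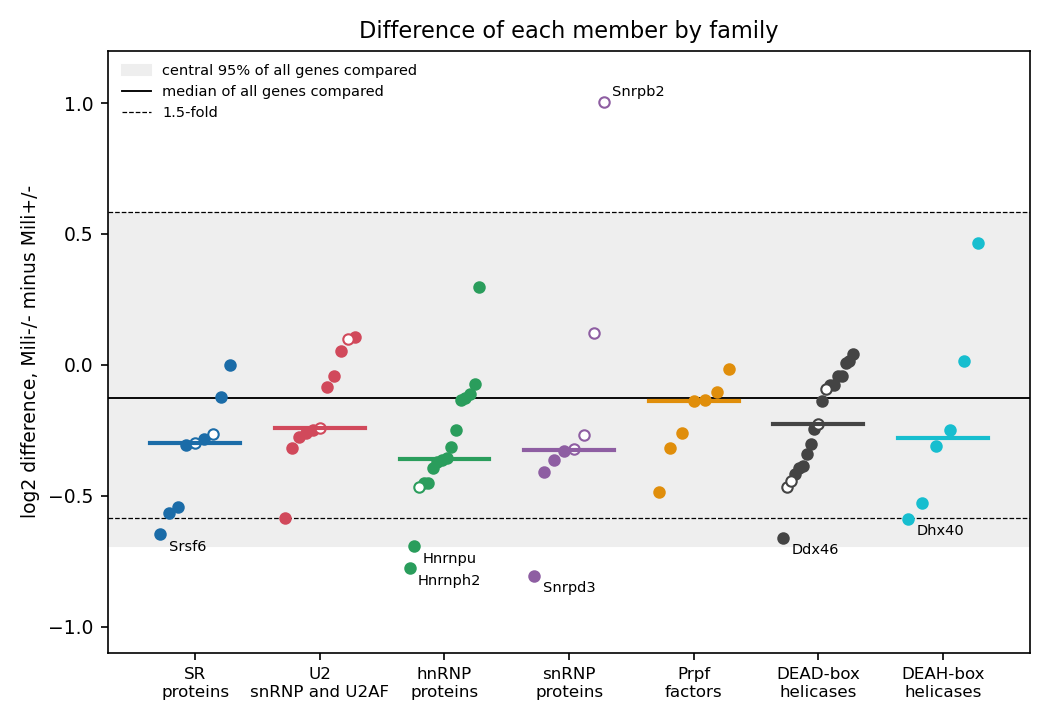
Log2 difference of Mili-/- minus Mili+/- (vertical) for the 76 members compared, by family; each point is a gene, open points carry a suffix for shared sequence or relaxed probe selection, coloured bars are family medians, the grey band the central 95% of all genes compared, the black line their median of -0.13 and dashed lines 1.5-fold. The hnRNP median is -0.36, the Prpf median of -0.14 lies near the line of all genes, and the 7 genes past 1.5-fold are named.

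The snRNP protein genes held both extremes of the whole group, and 6 of 8 lay under the median of all genes with every scaling tried, at a median of -0.33. Snrpd3, which encodes a Sm ring protein, had 158 and 97.6 (1.75-fold lower, -0.81), the lowest of the 76 members compared. Snrpb2, the U2-specific B'' protein, had 31.7 and 68.6 (2.01-fold higher). It was compared only because the Mili-/- array passed the median, which favours a higher value. Its probe set carries the suffix for relaxed selection, and its other probe set had 30.9 on both arrays (-0.11), so the array gives no settled value for Snrpb2.

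Of the remaining Sm ring genes, Snrpe and Snrpg lay close together and Snrpb lay apart. Snrpe, with the suffix for shared sequence, had 850 and 734 (-0.32), and Snrpg had 931 and 800 (-0.33). Snrpb, which encodes the Sm B proteins, had 1630 and 1915.5 (0.12). Its probe set has the suffix for relaxed selection, and a second one lay under the median signal on both arrays (2.8 and 9.5). The U1-specific Snrpc had 346 and 281 (-0.41) and the U2-specific Snrpa1 had 121 and 102 (-0.36). The pseudogene Snrp1c-ps2, whose probe set carries the suffix for shared sequence, had 190 and 170 (-0.27). Apart from Snrpd3, Snrpb2 and Snrpb, the snRNP genes thus covered only the range from -0.41 to -0.27.

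The Prpf genes encode proteins of the U5 and tri-snRNP particles and of the later catalytic complexes, and their median of -0.14 was close to that of all genes, above or below it depending on the scaling. Prpf8, the scaffold at the centre of the spliceosome, stood apart from the others with 545 and 420 (-0.48). Among its partners in the tri-snRNP, Prpf6 had 343 and 366 (-0.02) and Prpf31 94.2 and 94.6 (-0.10). The kinase gene Prpf4b had 61.5 and 53.2 (-0.32). Prpf38b had 115 and 103.5 (-0.26). Prpf38a (172.5 and 169, -0.14) and the ubiquitin ligase gene Prpf19 (375 and 369, -0.13) were close to the median of all genes. A second, dim probe set of Prpf19 had 16.7 and 32.0 (0.83).

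Of the 21 DEAD-box genes 19 were compared, with a median of -0.23, 11 under and 8 above the median of all genes. Ddx46, the mouse Prp5 that remodels the U2 particle, had 44.5 and 30.4 (1.58-fold lower, -0.66). It was compared only through the Mili+/- array, which favours a lower value. Of the DEAH-box genes 6 of 7 were compared, with a median of -0.28. Dhx40 had 270 and 194 (-0.59), just past 1.5-fold lower, and Dhx30, which acts in mitochondrial ribosome assembly, 254 and 190 (-0.53). A further Dhx30 probe set was dim (4.6 and 9.1).

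The helicases are described by role, a grouping made after the values were seen, so their medians are descriptions and no contrast between roles is drawn. The 6 helicases of splicing and export had a median of -0.12, with 3 on each side of the median of all genes. Dhx15, which disassembles spliceosomes, had 56.9 and 84.9 (0.47), the highest difference after Snrpb2 among the members compared. Dhx16, which acts just before the first catalytic step, had 125.5 and 114 (-0.25). Ddx39b (UAP56), which acts in U2 loading and in export, had 757.5 and 821.5 (0.01), Ddx19b of the nuclear pore 69.5 and 75.8 (0.02), and Ddx41, found in late spliceosomes, 76.1 and 66.6 (-0.30).

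Helicases of the nucleolus and of ribosome assembly had a median of -0.36 over the 10 of 12 that were compared, with 7 under the median of all genes. Ddx51 (119 and 92.9, -0.47), Ddx27 (52.6 and 41.7, -0.45), Ddx21 (123.6 and 100, -0.42) and Ddx18 (228 and 187, -0.39, with a second probe set at -0.15) were the lowest. The probe sets of Ddx51 and Ddx27 carry a suffix for shared sequence or relaxed selection. A second, dim one of Ddx27 went the other way (28.3 and 37, 0.28). Ddx24 (220 and 181, -0.39) and Ddx50 (467 and 398, -0.34) had further bright probe sets above 0, at 0.09 and 0.12. Dim ones of Ddx50 had 22.3 and 10.8 (-1.16) and 5.3 on both arrays. Ddx54 (-0.14) stood at the median of all genes, and Ddx56 (-0.08), Ddx47 (-0.08, and 0.19 in a second probe set) and Ddx52 (0.04) stood above it. The median of these genes was -0.14 with the mean over probe sets, and -0.24 without the brightness filter or without suffixed probe sets.

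The remaining 9 helicases compared had a median of -0.23. The paralogues Ddx5 and Ddx17, coregulators of transcription and splicing, had 198 and 180 (-0.25) and 446 and 467 (-0.04). A second probe set of Ddx17 had 218 and 176.5 (-0.41), so the paralogues are not told apart. Ddx3x, an X-linked helicase of translation initiation, had 320 and 295 (-0.23) and 58.2 and 54.4 (-0.21) in its bright probe sets. Ddx6, a component of P-bodies, had 230 and 232.5 (-0.09), with others at -0.35 and 0.02. Ddx1 had 403 and 422.5 (-0.04) and a second probe set at 0.34. Dhx9, RNA helicase A, had 209 and 182 (-0.31), and Dhx36, which unwinds G-quadruplexes, 146 and 159 (0.02).

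Probe sets of the same gene give the only internal check of these values. Of the members, 26 had more than 1 probe set, and in 17 of these at least 2 passed the brightness filter. All bright probe sets lay on the same side of 0 in 11 of the 17. With centring 68.95 percent of all genes compared lay below 0, so a shared side is common. The count was not made over all genes and is not read as agreement. The SD between probe sets of one member was 0.24, against 0.31 over the 720 genes of the array with more than 1 bright probe set. The gap between the extreme probe sets of a member ranged from 0.02 in Ddx3x to 0.85 in Srsf10, with a median of 0.25.

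**Figure D3:**
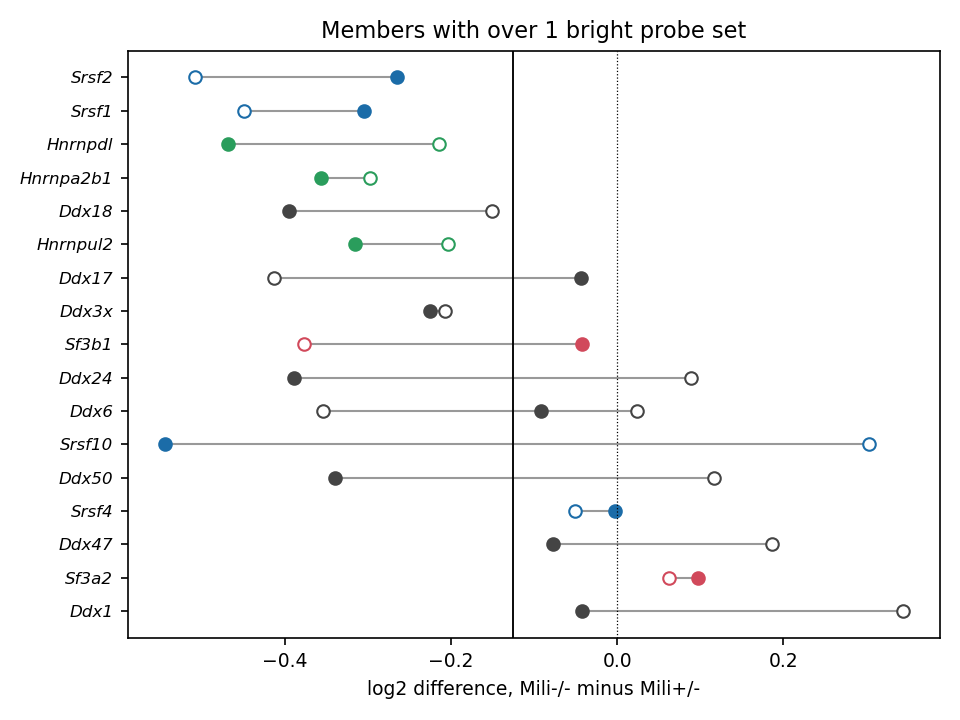
Log2 difference of Mili-/- minus Mili+/- (horizontal) in every bright probe set of the 17 members with more than 1; filled points are the brightest probe set, used for the gene, open points the others, colours the families as in the plot by family, the solid line the median of all genes and the dotted line 0. Srsf10 has the widest gap (0.85), while Srsf1, Srsf2, Hnrnpa2b1, Hnrnpdl, Hnrnpul2, Ddx18 and Ddx3x lie wholly under the median of all genes.

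Lists of other splicing genes also stood lower than most genes of the array. The gap of other RNA helicases to all genes was smaller and depended on the scaling. The lists were chosen with earlier results of these data known. Of the other genes of spliceosome core and assembly 37 were compared, with a median of -0.26 and 28 under the median of all genes. In this list 2 were at least 1.5-fold lower and none that much higher, near the 5.04 and 2.47 percent of all genes. The lowest were Acin1 of the junction-associated ASAP complex (208 and 145, -0.63), Cwc15 (169 and 119, -0.62) and Usp39 of the tri-snRNP (117 and 85.5, -0.56). Of 39 other splicing regulators, 28 lay under the median of all genes, with a median of -0.24. Of the regulators 2 were lower and 1 higher by 1.5-fold, again near the shares of all genes. Tra2b, an SR-related activator of exons, had 536 and 345 (-0.74) and Ptbp2, a repressor that acts in neurons and germ cells, 83.2 and 54.8 (-0.71). Rbfox2 had 36.6 and 67.8 (0.78), in a probe set of relaxed selection that was bright enough on the Mili-/- array only.

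The genes of the exon junction complex, export and nonsense-mediated decay had a median of -0.41 over 11 genes. It was -0.25 with the mean over probe sets. Of the 11 genes, 10 were under the median of all genes. By 1.5-fold 2 were lower, beside 5.04 percent of all genes. The list included the decay gene Smg5 (91.5 and 54.8, -0.85, suffix for shared sequence), the exportin gene Xpo1 (424 and 294, -0.64) and Thoc7 (40.8 and 30.9, -0.51). Thoc7 was bright enough on the Mili+/- array only, and this favours a lower value. Smg5 has 3 probe sets and Xpo1 has 2, and only the brightest of each is given. Only 13 of the 27 listed had a value. RNA helicases with other names stood at -0.13 over 7 genes. Their gap to all genes was -0.0056 with centring, -0.057 after quantile normalization and -0.058 after loess. The lowest were Aqr at -0.25, which is also in the list of spliceosome core, Skiv2l at -0.24 and Eif4a2 at -0.18. Cleavage and polyadenylation genes stood at -0.18 over 15 genes, with Cpsf7 at -0.32, Rbbp6 at -0.28 and Fip1l1 at -0.26. No gene of these last 2 lists passed 1.5-fold, where 7.52 percent of all genes did.

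**Figure D4:**
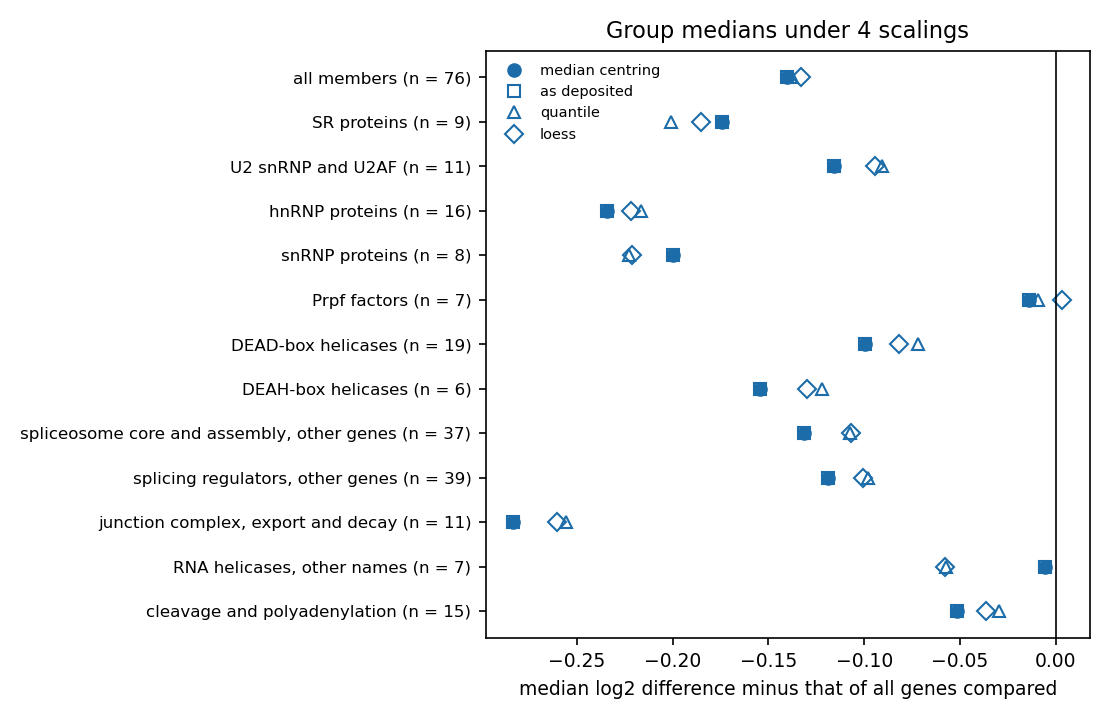
Median log2 difference of each family and list minus that of all genes compared (horizontal), under median centring, as deposited, quantile normalization and loess; n is the number of genes compared. Centring and deposited values coincide by construction, the members lie between -0.14 and -0.13, and only the Prpf genes fall on both sides of 0.

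Markers of testis cell types were read on the same arrays. Markers of germ cells had a median of -0.41 (8 compared of 13 listed, summed signal of those on the array 3525 in Mili+/- and 3008 in Mili-/-), and 7 of the 8 lay under the median of all genes. Sertoli cell markers had a median of 0.30 (9 of 11, 4529 and 5322). Leydig markers stood at -0.29 (4 of 6, 774 and 693), peritubular at 0.01 (5 of 5, 1999.6 and 2077), macrophage at 0.25 (6 of 7, 470.5 and 548) and endothelial at 0.10 (4 of 6, 619 and 615). Adipocyte markers stood at 0.90 (5 of 7, 245 and 448) and erythroid ones at 0.80 (4 of 7, 1516 and 2048), but 3 of those 5 and 2 of those 4 were bright enough on the Mili-/- array only, which favours higher values. Of markers of pachytene cells and spermatids, 3 of 9 were compared (-0.34, 182 and 189). No marker on the array was listed at 0. The part of cell composition in the differences of splicing genes was not tested, and in a bulk sample fewer cells of a type and less RNA per cell cannot be told apart.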

How the data were processed

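Per the labels, polyadenylated RNA was hybridised to 1 single-colour array per genotype, 2 arrays in all. The deposited values are linear intensities, 1 per probe set and array. Scanner software, background correction and scaling are unstated in the labels, and detection calls were not used here. Of 12488 probe sets, 66 control probe sets were left out, which also removed 1 missing value. Of the other 12422, 10833 had 1 gene symbol in the platform annotation, 396 several and 1193 none. Symbols were checked through Entrez IDs in a RefSeq gene table (GRCm38.p6, 10817 matched), and none changed.

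Values under the 20th percentile of an array (6.3 and 7.0) were raised to it, log2 was taken, and the array's median was subtracted. The members and lists were chosen with earlier results of these data known. Calls used 1.5-fold. Genes given in full were, per family, those past 1.5-fold, the 4 with the largest difference and the 3 brightest. Every other member was also named, and of each other list the 3 with the largest difference. Marker lists are given by their counts, medians and sums. No test was possible with 1 array per group, and the number of arrays limits the precision. The code was tested on simulated data. Promoter motifs were added after the data were seen, and protein features were not analysed here. Python 3.11.15, NumPy 2.4.6, pandas 2.3.3, statsmodels 0.14.6 and matplotlib 3.10.9 were used.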

Additional observations from a re-analysis of the deposited data

How the results depend on the processing

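No paired analysis was possible because each genotype had 1 array. Medians are said to move when they shift by 0.1 or more. With the values as deposited every median was higher by 0.11. It was -0.16 for the members, -0.19 for SR, -0.13 for U2 and U2AF, -0.25 for hnRNP, -0.22 for snRNP, -0.030 for Prpf, -0.12 for DEAD-box and -0.17 for DEAH-box genes. For the other lists it was -0.15 (spliceosome core), -0.13 (regulators), -0.30 (junction complex, export and decay), -0.021 (other helicases) and -0.067 (polyadenylation). After quantile normalization the medians of families and lists that moved were -0.15 (members), -0.10 (U2 and U2AF), -0.22 (hnRNP), -0.017 (Prpf), -0.079 (DEAD-box), -0.13 (DEAH-box), -0.11 (spliceosome core), -0.11 (regulators), -0.26 (junction complex) and -0.037 (polyadenylation). After loess they were -0.14 (members), -0.19 (SR), -0.10 (U2 and U2AF), -0.23 (hnRNP), -0.0046 (Prpf), -0.090 (DEAD-box), -0.14 (DEAH-box), -0.12 (spliceosome core), -0.11 (regulators), -0.27 (junction complex) and -0.044 (polyadenylation). The cause is the scaling itself, since the median of all genes moved as well.

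The count of members 1.5-fold lower was 2 as deposited (Hnrnph2 and Snrpd3) and 3 after quantile normalization or loess (Ddx46 too). With centring it was 27 at a threshold of 0.32 on the log2 scale and 0 at 2-fold. The count higher was 2 with that lower threshold and 2 without the filter, where Ddx10 joined. It was 0 with both arrays past the filter, with the filter at the 75th percentile, with the mean over probe sets and without suffixed probe sets. With the filter at the 75th percentile DEAD-box genes stood at -0.092 (11 genes) and DEAH-box genes at -0.42 (4 genes). With the mean over probe sets SR genes stood at -0.20, DEAH-box genes at -0.15 and the junction complex list at -0.25. By role, nucleolar helicases stood at -0.25 as deposited, -0.23 after quantile normalization or loess, -0.24 without the filter or suffixed probe sets and -0.14 with the mean over probe sets. Helicases of splicing and export stood at -0.011, -0.0049 and -0.0057 under the other scalings, and the remaining ones at -0.12, -0.079 and -0.090. Those of splicing and export stood at 0.0070 over 5 genes with both arrays past the filter. With the filter at the 75th percentile 1 of them was left, Ddx39b, at the same value. The floor and the platform's own symbols moved no median and no count. With the mean over probe sets 6 of 76 members moved by more than 0.31 (Ddx27, Dhx30, Hnrnpab, Prpf19, Snrpb2 and Srsf10), and dim probe sets entered that mean.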

Other observations

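A further 7 probe sets were annotated to a splicing gene together with other symbols and stayed outside the members. One shared by Snrpa and predicted genes had 322 and 260 (-0.42). The brighter of those shared by Hnrnpa1 had 252 and 192 (-0.50) and the dimmer 34.4 and 33.4 (-0.15). Those shared by Hnrnpa3 had 1256 and 1242 (-0.13) and, dim, 16.5 and 10.4 (-0.78). Those shared by Snrpd2 (1381 and 1316, -0.18) and Snrpd1 (63.7 and 66.3, -0.05) were close to the median of all genes. These are sources that the array cannot tell apart, and no gene is named for their values.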
